A study of Mus musculus with 48 samples.

Results

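Basal III cells of skin are the keratinocytes of the mouse skin samples in a Seq-Well single-cell RNA-seq study of collagen-induced arthritis (CIA). They were taken as the cells that the deposited annotation labelled Basal III in skin, which gave 711 cells of 1167 annotated skin cells and 12096 annotated cells in all organs. All 10 mice with a skin sample contributed 20 or more of them, 197 cells from 4 healthy mice and 514 cells from 6 CIA mice. The name had been given by the authors to a cluster without a reference match from 6 genes, *Krt14*, *Krt5*, *Mt2*, *BC100530*, *Fosl1*, and *Ptgs2*, so the levels of these genes against other cells describe the choice of the cluster and were not tested.

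The basal layer of the epidermis is held to the basement membrane, contains the dividing keratinocytes, and uses the keratin pair K5 and K14. Cells that leave it exchange this pair for K1 and K10, switch on adhesion and barrier genes, and end as cornified cells. The outer root sheath of the hair follicle and the edge of the sebaceous gland are continuous with the basal layer and also use K5 and K14, while maturing sebocytes fill with lipid.

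The mice were male DBA1/J mice of 8 to 12 weeks. CIA had been induced by intradermal injection of 100 µg of bovine type II collagen in complete Freund's adjuvant at the tail base, with a booster in incomplete adjuvant on day 20. The healthy mice, H3, H4, H6, and H7, received only saline, without adjuvant, and had an arthritis score of 0, so that collagen and adjuvant cannot be told apart. Severe arthritis, with a score of 8, was recorded for S1, S2, and S3, and mild arthritis for S5 (4 to 5), S6 (3 to 4), and S8 (2 to 3). The sample names carry the prefix 2CIA for S1, S2, S3, and H3 and the prefix CIA for the other mice, which was taken as the name of an experiment, so severity and experiment cannot be told apart among the immunized mice. The immunized mice were killed at a set score or at the end of the observation, so the time after immunization may differ between them. Skin had been cryopreserved and digested with enzymes.

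The cells held 425 to 5981 unique molecular identifiers (UMIs) each, with a median of 797 UMIs and 492 genes. Counts were summed per mouse, which gave 18486 UMIs in S6 to 128611 UMIs in S2, and levels are given as CPM, the UMIs of a gene per 1000000 summed UMIs of the Basal III cells of that mouse. A gene with 1 UMI in S6 therefore stands at 54.1 CPM, and values of a few UMIs carry large counting error. The median UMIs per cell was 936 ± 107 (SD, n = 4) in healthy mice and 758 ± 102 (SD, n = 6) in CIA mice, a difference of -178 (two-sided exact permutation test, p = 0.0381). The Basal III share of annotated skin cells was 50.4% ± 11.1 in healthy and 65.5% ± 13.6 in CIA mice (two-sided exact permutation test, p = 0.124, where 0.00476 is the smallest p that the design allows). H4 was the lowest at 34.3% (95% Wilson interval 24.1% to 46.3%) and S5 the highest at 83.0% (76.4% to 88.1%), intervals that cover counting error only.

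The markers set these cells apart from the other large population of skin, the 324 fibroblasts, to different extents. *Krt14* was found at 822 ± 235 CPM in Basal III cells and 107 ± 87.3 CPM in fibroblasts (SD over 10 mice), and *Krt5* at 633 ± 230 and 56.2 ± 52.7 CPM, both with the higher value in Basal III cells in 10 of 10 mice. *Mt2*, which encodes a metal-binding metallothionein, stood at 1268 ± 582 and 1029 ± 668 CPM, with the higher value in Basal III cells in 7 of 10 mice. The keratins thus separated both populations in every mouse and *Mt2* did not. *Ptgs2*, which encodes the prostaglandin-forming enzyme COX-2, was higher in Basal III cells in 6 of 10 mice, and *Fosl1*, an AP-1 subunit, in 8 of 10. *BC100530*, a gene of the stefin A family of protease inhibitors, was higher in 9 of 10.

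Genes that did not serve to name the cluster also belonged to stratified epithelium. *Lgals7*, the epithelial lectin galectin-7, had a UMI in 93.1% of Basal III cells and 23.8% of fibroblasts, and *Sfn*, which encodes the epithelial 14-3-3 sigma, in 68.4% and 13.9%. The fibroblast collagens were low, with *Col1a1* at 147 ± 99.0 CPM in Basal III cells and 7336 ± 6147 CPM in fibroblasts. The summed fibroblast list ranged from 658 to 1088 CPM in the healthy mice and from 412 to 2272 CPM in the CIA mice. Of the marker lists of macrophages, T cells, endothelium, melanocytes, Merkel cells, granulocytes, blood, and muscle, 0 genes passed the filter on low counts. The summed haemoglobin list was at 0 to 21.8 CPM in the healthy mice and at 7.78 to 2086 CPM in the CIA mice, highest in S5, where 221 of 244 UMIs of *Hbb-bs* were in 1 cell. In joint, 50 cells carried the same Basal III label, and only the 31 of them in the sample of H4 were examined. They had *Krt14* at 2874 CPM and *Krtdap* at 7061 CPM, but *Scd1*, a sebaceous desaturase gene, at 49.6 CPM against a mean of 1747 CPM in skin, and the defensin genes *Defb5*, *Defb7*, and *Defb8* at 0 UMIs, where the skin cells of the same mouse held 3 UMIs of these genes.

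*Mt2* lies at chr8:94172664-94173568 (GRCm38, plus strand) and is the gene of this marker set best known for induction through its promoter. The 250 bases before its RefSeq start (chr8:94172368-94172617, GRCm38.p6, plus strand) are shown because they hold 5 matches on either strand to TGCNCNC, which are in capitals. TGCNCNC is a loose form of the core of the metal response element, so not every marked stretch need be such an element. At least 1 match to the loose form was present in 44.4% of 32851 promoters of this length, so a match alone is common. Promoters with 5 matches were not counted.
Mt2: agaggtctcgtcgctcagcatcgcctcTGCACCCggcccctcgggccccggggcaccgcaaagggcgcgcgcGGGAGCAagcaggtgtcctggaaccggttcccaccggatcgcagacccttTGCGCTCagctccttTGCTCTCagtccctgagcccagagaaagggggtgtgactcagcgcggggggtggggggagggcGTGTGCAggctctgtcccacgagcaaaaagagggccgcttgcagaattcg

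Keratins of different compartments were found in the same annotated population. A UMI of *Krt14*, *Krt5*, or *Krt15* was present in 434 cells, a UMI of the spinous keratins *Krt1* or *Krt10* in 134 cells, both kinds in 94 cells, and neither in 237 cells. *Krtdap*, which encodes a secreted protein of differentiating keratinocytes, was present in 82.1% of the cells with a spinous keratin and in 45.8% of the rest. It was also present in 62.2% of the cells with a basal keratin and, as background, in 18.8% of the fibroblasts. Most cells held too few UMIs for the absence of a keratin to be read. A fibroblast had a UMI of *Krt14* in 5.86% of cells at a median depth of 694 UMIs, of *Krt10* in 3.40%, and of *Krt17*, a keratin of the outer root sheath, in 1.85%. In Basal III cells the same shares were 44.9%, 16.7%, and 19.8%.

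Late barrier genes were almost absent. Of the 38 genes of the granular layer and cornified envelope, 25 had any UMI and only *Elovl4*, which elongates the very long fatty acids of the barrier, passed the filter on low counts. *Flg* and *Flg2*, which encode filaggrins, were at 0 UMIs in all 10 mice. Of the 34 genes of the hair shaft and inner root sheath 20 had a UMI, and *S100a3*, a gene of the hair cuticle, had 100 of its UMIs in S3 and 28 in S5 but 0 in each healthy mouse. *Krt25*, an inner root sheath keratin, had 27 UMIs in S5, 7 in S8, and 1 in the healthy mice. Neither *S100a3* nor *Krt25* passed the filter on low counts. The 2 members that did, *Mt4* and *Gata3*, had log2 fold changes of -1.18 and -0.27 for CIA minus healthy. The summed list was at 334 to 965 CPM in healthy mice and 277 to 1716 CPM in CIA mice.

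Genes of the sebaceous gland marked a part of these cells. A list of 21 sebaceous gland genes took at least 2% of the UMIs in 88 of the 711 cells and in 0 of 324 fibroblasts, which allows a share of up to 0.926%. This limit was set after the values had been seen, it marks a range and not a cell type, and 45 cells lay within 0.5 percentage points of it. These cells came from all 10 mice, from 2 cells in H7 to 23 in S5, and had a median of 1169 UMIs against 768 in the rest. Over the 9 mice with at least 3 such cells, *Krt5* was found at 50.5 ± 81.5 CPM in them and 771 ± 289 CPM in the rest, and *Krt14* at 483 ± 230 and 874 ± 280 CPM. *Krt5* was thus lower in 9 of 9 mice and *Krt14* in 8 of 9. The markers *Mt2* (282 ± 234 against 1410 ± 596 CPM) and *Fosl1* (6.98 ± 20.9 against 242 ± 78.9 CPM) were lower in 9 of 9 mice, and *Ptgs2* had 0 UMIs in them and 144 in the rest.

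The same cells carried lipid genes that were not on the list. *Fa2h*, a fatty acid hydroxylase gene, stood at 1273 ± 663 CPM in them and 25.1 ± 29.1 CPM in the rest, and *Cers4*, a ceramide synthase gene, at 1401 ± 702 and 59.3 ± 62.9 CPM. Both of these and the cholesterol synthesis genes *Hmgcs1* and *Msmo1* were higher in 9 of 9 mice. So was *Krt79*, a keratin of the infundibulum and sebaceous duct, at 799 ± 427 against 146 ± 73.6 CPM. These values describe cells that were set apart by correlated genes of the same libraries, and no test was made of them.

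**Figure D1:**
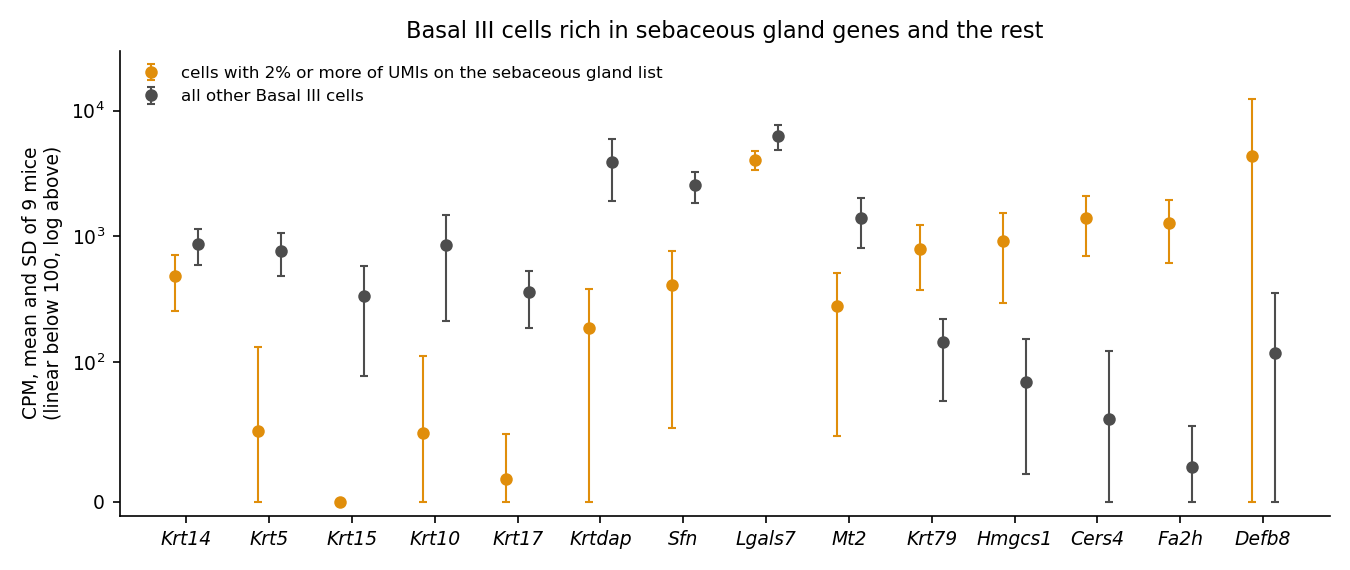
CPM of 14 genes in the 88 Basal III cells with 2% or more of their UMIs on the sebaceous gland list (orange) and in the other Basal III cells (grey), as mean and SD over the 9 mice with at least 3 such cells, on an axis that is linear below 100 and logarithmic above, with the lower bars cut at 0. Epidermal keratins, *Krtdap*, *Sfn*, and *Mt2* were lower in the orange cells, while *Krt79*, the lipid genes, and *Defb8* were higher.

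CIA and healthy mice were compared to ask whether the disease model was accompanied by changes in skin keratinocytes. No gene passed the threshold, a Benjamini-Hochberg adjusted p of 0.05 in the quasi-likelihood test of edgeR, with 0 of the 1280 genes tested (0%). An unadjusted p under 0.05 was found for 71 genes (5.55% of those tested), 37 higher (2.89%) and 34 lower (2.66%) in CIA mice, and by DESeq2 for 58 genes with 0 after adjustment. The values below are therefore differences that did not pass the test.

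Among the markers, *Krt14* (chr11:100203162-100207548, GRCm38, minus strand) stood at 1131, 535, 1084, and 1047 CPM in H3, H4, H6, and H7 and at a lowest of 476, a median of 771, and a highest of 980 CPM in the CIA mice. The log2 fold change was -0.39 ± 0.25 (SE), and only H4 of the healthy mice lay within the range of the CIA mice. *Krt5* (chr15:101707070-101712898, minus strand) stood at 827, 740, 851, and 721 CPM in the healthy mice and at 307, 449, and 941 CPM (lowest, median, highest) in the CIA mice, a log2 fold change of -0.52 ± 0.29. S2 alone among the CIA mice lay above all healthy mice. *Mt2* stood at 1849, 1110, 1408, and 1999 CPM in the healthy mice and at 595, 857, and 2232 CPM in the CIA mice, with S2 again the highest of all 10 mice, and its log2 fold change was -0.58 ± 0.32. The adjusted p was 0.893 for *Krt14* and 0.87 for *Krt5* and *Mt2* (edgeR, Benjamini-Hochberg). This fit took no account of the experiment, to which 3 of the 6 CIA mice and 1 of the 4 healthy mice belong as 2CIA. With the experiment as a term the log2 fold changes were -0.76 for *Krt5* and -0.89 for *Mt2*, within the experiment CIA -1.04 and -1.18, without S2 -0.78 and -0.97, and with cells thinned to equal depth -0.31 and -0.32. None passed after adjustment.

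*BC100530* (chr16:36359382-36367748, minus strand) had the largest marker difference, and it rested on few mice. It was found at 218, 0, 223, and 163 CPM in H3, H4, H6, and H7, and at 913, 2760, 439, 16.4, 162, and 138 CPM in S1, S2, S3, S5, S6, and S8. The 3 mice with severe arthritis were above all healthy mice and the 3 with mild arthritis were within or below the highest healthy mouse. The log2 fold change was 2.20 ± 0.91, which did not pass the test, 0.98 without S2, 0.54 with the experiment as a term, and -1.11 within the experiment CIA. *Fosl1* stood at 258 ± 37.5 CPM in healthy and 164 ± 65.5 CPM in CIA mice, with a log2 fold change of -0.72 ± 0.31 (adjusted p = 0.848, edgeR, Benjamini-Hochberg).

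**Figure D2:**
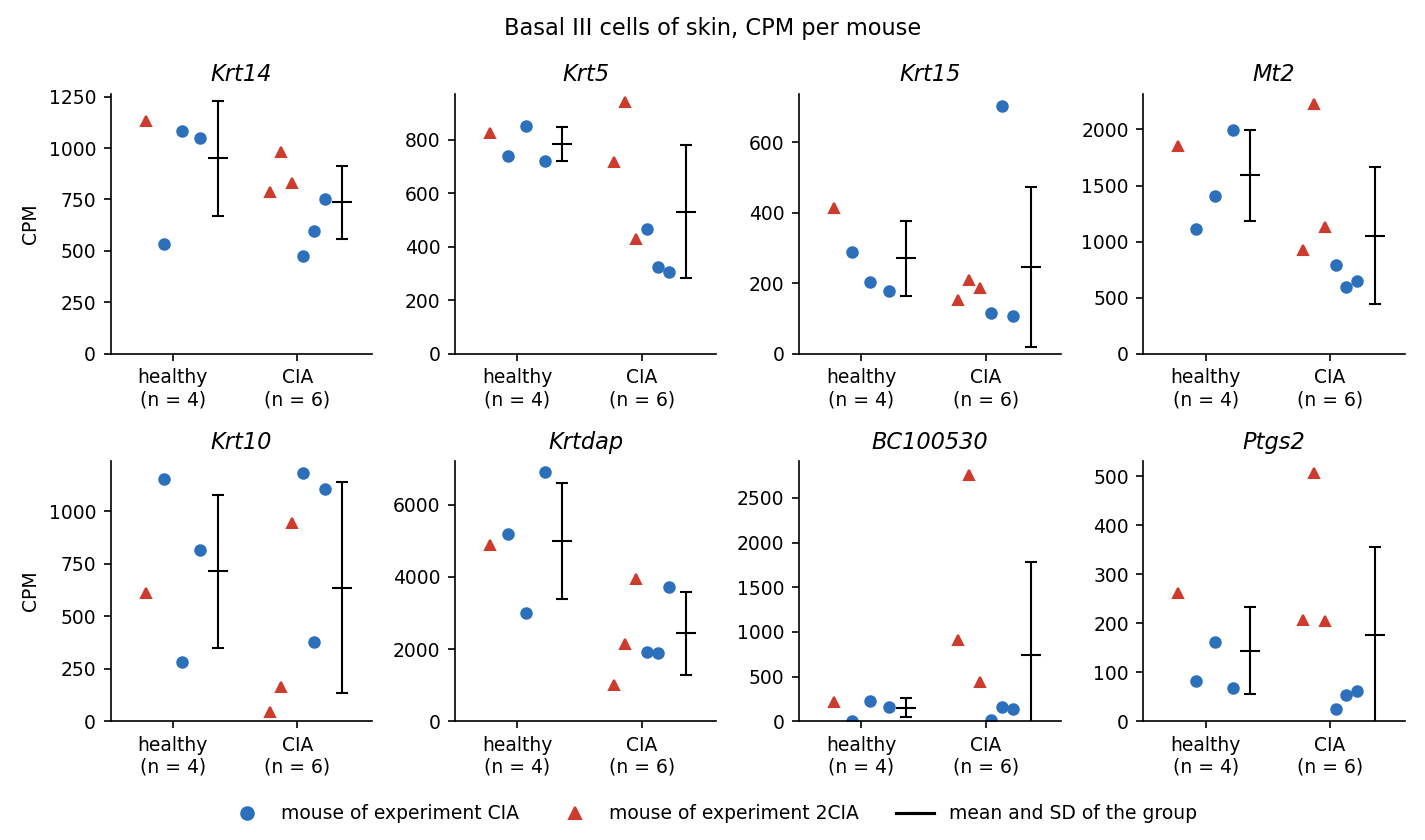
CPM of 8 genes in the Basal III cells of each mouse, healthy (n = 4) and CIA (n = 6), with circles for mice of the experiment CIA, triangles for the experiment 2CIA, and the mean and SD of each group beside them, where an SD bar that reaches below 0 is cut there. The groups overlapped for all 8 genes, and S2 was the highest mouse for *Krt5*, *Mt2*, *BC100530*, and *Ptgs2*.

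Basal keratinocyte genes as a list had a median log2 fold change of -0.37 over the 8 tested of 20, against 0.01 over all genes tested. Of these, 6 had a negative sign, which 48.4% of all genes tested had, and *Sfn* (-0.70 ± 0.25) was the only 1 with an unadjusted p under 0.05. The sum of the list was 6356 ± 1058 CPM in healthy and 4603 ± 1147 CPM in CIA mice, with overlapping ranges. *Sfn*, its most abundant member, alone stood at 2989 ± 877 CPM in healthy and 1856 ± 630 CPM in CIA mice. The sum is therefore not a measure of the basal keratins, and it was not formed without *Sfn*. *Krt15*, a keratin of basal and bulge cells, was at 270 ± 107 CPM in the healthy and 246 ± 228 CPM in the CIA group, where S6 stood alone at 703 CPM from 13 UMIs. *Itga6*, the integrin that anchors basal cells, had a log2 fold change of 0.64 and *Trp63*, the p63 transcription factor of stratified epithelia, of 0.06.

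The spinous list had 14 of 25 genes tested, with 1 higher and 2 lower at an unadjusted p under 0.05 (2.89% and 2.66% of all genes tested) and a median of -0.11. *Krtdap* had the smallest p of all genes with lower levels in CIA mice. It was found at 4873, 5182, 2998, and 6920 CPM in H3, H4, H6, and H7, and at a lowest of 1009, a median of 2026, and a highest of 3938 CPM in the CIA mice. Thus H6 overlapped with the CIA mice and the other healthy mice were above them. The log2 fold change was -1.05 ± 0.31 (adjusted p = 0.692, edgeR quasi-likelihood, Benjamini-Hochberg). Leaving out each mouse in turn gave -1.25 to -0.82, leaving out the cells rich in sebaceous gland genes -0.95, and thinning the cells to equal depth -0.76. A block by mouse number gave -0.47. That value rests on H3, S3, H6, and S6 alone, the only mice that share a number, and these are different animals. *Lgals7* (-0.37 ± 0.16) had the same sign, and *Dsp*, which encodes desmoplakin of the desmosomes, the opposite (0.78). *Krt10* (-0.07 ± 0.59) and *Krt1* (0.24 ± 0.64) spread widely between mice, *Krt10* from 41.5 CPM in S1 to 1183 CPM in S5.

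Of the hair follicle sheath, bulge, and infundibulum list, 10 of 27 genes were tested, 8 had a positive sign, against 51.6% of all genes tested, and the median was 0.11. *Sox9*, a transcription factor of the outer root sheath and bulge, was the 1 member with an unadjusted p under 0.05. It stood at 392, 329, 729, and 204 CPM in the healthy mice and at 615, 737, and 926 CPM (lowest, median, highest) in the CIA mice. All CIA mice were above all healthy mice except H6, and the log2 fold change was 0.80 ± 0.29 (adjusted p = 0.692, edgeR quasi-likelihood, Benjamini-Hochberg). *Krt17* (-0.02 ± 0.39) and *Krt79* (0.03 ± 0.43) had values near 0. The sebaceous gland list (10 of 21 tested, median 0.24) and the wound list (10 of 67, median 0.14) had 0 and 2 members with an unadjusted p under 0.05 (5.55% of all genes tested), the latter being *BC100530* and *Fosl1*.

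Immediate early genes, which many stimuli induce quickly, held more members with a small p than any other list. Of 29 listed genes 23 were tested, and 7 had an unadjusted p under 0.05, all with lower values in CIA mice (against 2.66% of all genes tested), while the median of the list was -0.18. Of the 23 genes, 14 had a negative and 9 a positive sign, against 48.4% and 51.6% of all genes tested. *Btg2* had a log2 fold change of -1.40 ± 0.47, *Ier2* of -0.92 ± 0.31, *Atf3* of -0.81 ± 0.27, and *Fos* of -0.73 ± 0.34. With a block by mouse number, which rests on H3, S3, H6, and S6 alone, *Btg2* stood at -0.41 and *Fos* at 0.23. Their summed level was 11071 to 14344 CPM in healthy and 7232 to 12818 CPM in CIA mice. The median UMIs per cell was also lower in CIA mice. With cells thinned to equal depth, 0 of 391 genes tested passed after adjustment and 26 had an unadjusted p under 0.05 (edgeR). The part of depth in the values of this list was not tested on its own. Heat shock genes had 11 of 15 tested, 10 with a negative sign (48.4% of all genes tested) and 0 with an unadjusted p under 0.05. The summed cell cycle list, of which only *Hmgb2* and *H2afz* could be tested, was at 1455 to 1769 CPM in healthy and 920 to 1404 CPM in CIA mice, ranges that did not overlap, but neither gene had an unadjusted p under 0.05. The sums of many lists were viewed and none was tested. *Hmgb2*, the largest member, had a mean of 533 CPM over the mice. At equal depth the proliferation gene *Mki67* was present in 1.75% of cells in healthy and 1.71% in CIA mice.

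**Figure D3:**
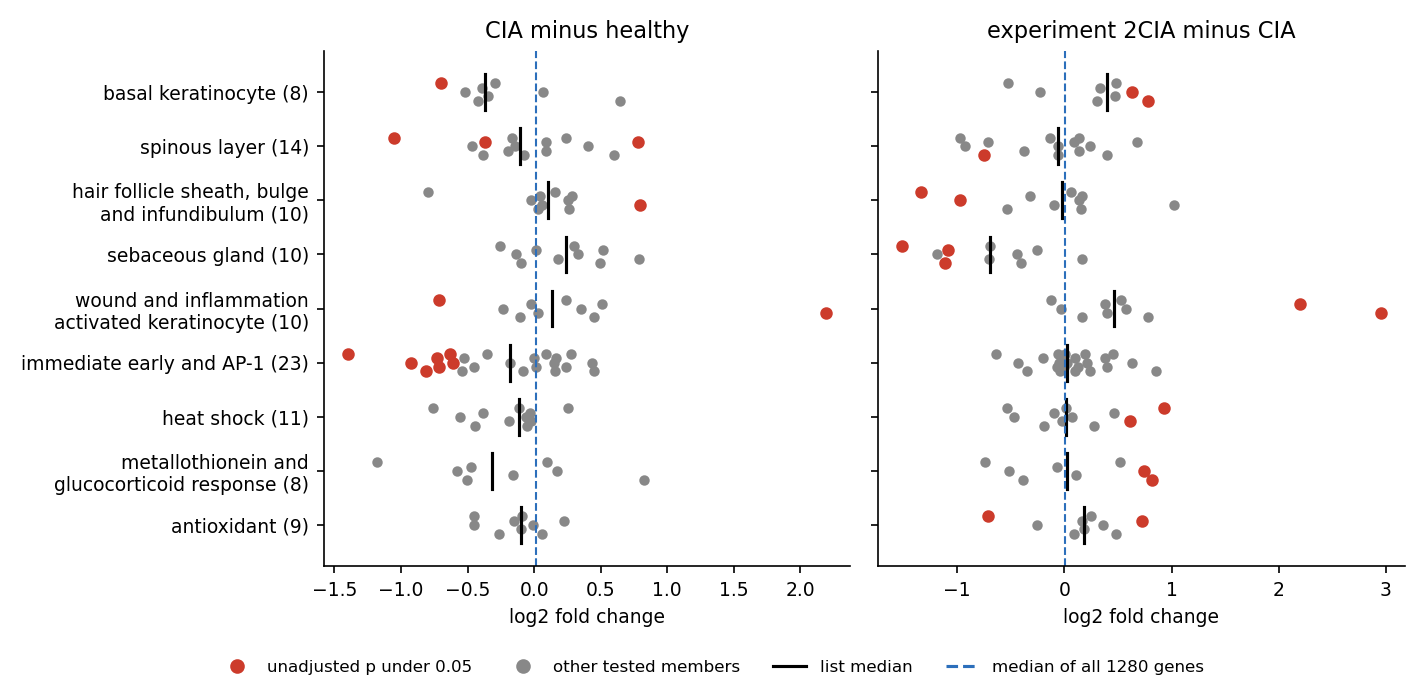
Log2 fold change of each tested member of 9 gene lists (number tested in brackets) for CIA minus healthy (left) and experiment 2CIA minus CIA (right), with red points for an unadjusted p under 0.05, a black bar for the list median, and a dashed line for the median of all 1280 genes. On the left 7 immediate early genes are red, all with negative values, and on the right the sebaceous gland list was mostly below 0.

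Healthy and CIA mice did not overlap in CPM for 13 genes that were higher (1.02%) and 9 that were lower (0.703%) in CIA mice. *Kdelr2*, which encodes a receptor that returns proteins to the endoplasmic reticulum, stood at 87.0, 123, 162, and 68.0 CPM in the healthy mice and at 197, 211, and 325 CPM (lowest, median, highest) in the CIA mice. *Kdelr2* passed the filter on low counts through the CIA mice, in which it was high, so its lack of overlap belongs to a gene that these mice selected. *Hes1*, a Notch target gene, stood at 718, 1028, 618, and 625 CPM in the healthy mice and at 292, 424, and 585 CPM in the CIA mice. Their log2 fold changes were 1.01 ± 0.32 and -0.76 ± 0.25, and that of *Hes1* was -0.29 with cells thinned to equal depth. *mt-Nd5*, a mitochondrial gene of complex I (-0.70 ± 0.21), was also lower without overlap. *Rps12-ps4* (1.01 ± 0.30) and *Gm13009* (1.10 ± 0.33) were higher without overlap, although the first is named as a ribosomal protein pseudogene and may share reads with its parent gene. *Rhob*, a small GTPase gene, had the smallest p of the genes with higher levels, with a log2 fold change of 1.21 ± 0.34 and overlapping groups (adjusted p = 0.692, edgeR quasi-likelihood, Benjamini-Hochberg).

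**Figure D4:**
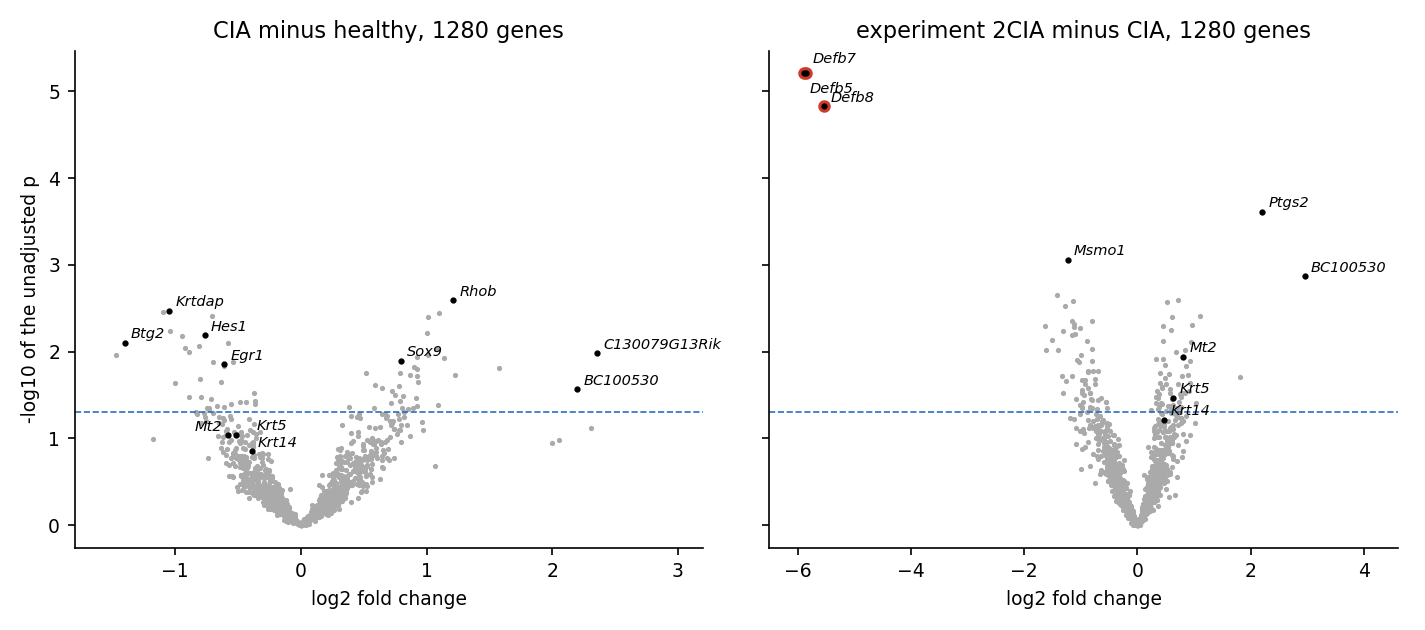
Log2 fold change and -log10 of the unadjusted p of edgeR's quasi-likelihood test for the 1280 genes tested in Basal III cells, for CIA minus healthy (left) and experiment 2CIA minus CIA (right), with named genes in black, genes past the adjusted threshold ringed in red, and an unadjusted p of 0.05 as a dashed line. The 3 ringed genes, *Defb5*, *Defb7*, and *Defb8*, were all on the right.

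The share of cells with a UMI of a keratin was compared after each cell had been thinned to 400 UMIs, a depth that all 711 cells reached. *Krt5* was present in 22.3% ± 3.12 of cells in healthy mice and 17.2% ± 4.82 in CIA mice, *Krt15* in 11.9% ± 0.768 and 6.62% ± 4.38, and *Krt1* in 1.86% ± 1.63 and 4.28% ± 3.69. The exact permutation test gave p = 0.1, 0.0476, and 0.257, and after Benjamini-Hochberg adjustment over the 9 genes of this comparison 0.45, 0.429, and 0.607. None of the 9 genes, which also comprised *Krt14*, *Krt10*, *Krt17*, *Krt79*, *Krt6a*, and the proliferation gene *Mki67*, passed. *Mki67* was present in 1.75% ± 2.39 and 1.71% ± 1.53 of cells. Without thinning, *Krt15* differed by -8.18 percentage points (exact permutation test, adjusted p = 0.0429), but the healthy cells were deeper.

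The 4 mice of the experiment 2CIA were compared with the 6 mice of the experiment CIA, adjusted for disease. This contrast is also the nearest to severity, with which it cannot be separated in CIA mice. Of 1280 genes, 3 (0.234%) passed the adjusted threshold of the same edgeR test, and an unadjusted p under 0.05 was found for 122 genes (9.53%), 60 higher (4.69%) and 62 lower (4.84%) in 2CIA. The 3 genes were *Defb5*, *Defb7*, and *Defb8*, neighbouring beta-defensin genes that encode secreted antimicrobial peptides. They lie on chromosome 8 of GRCm38 at chr8:19247580-19250828 (plus strand), chr8:19495097-19497775 (plus strand), and chr8:19445769-19447606 (minus strand). The log2 fold changes of 2CIA minus CIA were -5.89 ± 0.90, -5.85 ± 0.89, and -5.53 ± 0.91, with adjusted p of 0.00399, 0.00399, and 0.00629 (edgeR quasi-likelihood, Benjamini-Hochberg).

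Levels ranged widely within the experiment CIA. *Defb8* had 1, 8, 3, and 10 UMIs in H3, S1, S2, and S3 of the experiment 2CIA, and 1, 58, 67, 771, 0, and 247 UMIs in H4, H6, H7, S5, S6, and S8 of the experiment CIA. In CPM these were 21.8, 111, 23.3, and 97.5 against 41.1, 587, 911, 6332, 0, and 3797. S5 and S8 were far above all other mice, H6 and H7 were intermediate, and H4 and S6 overlapped with the mice of 2CIA. The genes passed the filter on low counts through mice of the experiment CIA, in which they were high, so the adjusted p belongs to genes that these mice selected. *Defb5* and *Defb7* had a similar pattern, with 605 and 726 UMIs in S5 and 204 and 228 in S8. The 3 genes lost significance without S3 (adjusted p = 0.0524 for *Defb5* and *Defb7* and 0.0654 for *Defb8*, edgeR), and did not pass the filter on low counts without S5 or without S8. The S5 cell with the most UMIs of the 3 genes (759) was also the cell with 221 UMIs of *Hbb-bs*, and without it the 3 genes still passed, at -5.58, -5.55, and -5.24. For CIA minus healthy their log2 fold changes were 2.31, 2.06, and 2.00, and did not pass the test.

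Few cells accounted for the defensin transcripts. Of 3156 UMIs of the 3 genes, 89.6% were in the 88 cells rich in sebaceous gland genes, and 33 of the 47 cells with at least 5 such UMIs were among these 88. This share was pooled over all mice, and most of the UMIs came from S5 and S8. By mouse, the cells rich in sebaceous gland genes held 1928 of 2102 UMIs in S5, 648 of 679 in S8, and 152 of 154 in H6. In H7 they held only 63 of 164, in S3 10 of 24, and in S2 3 of 7, and the other mice had 21 UMIs or fewer. A UMI of any of the 3 genes was present in 37.2% of the cells with *Scd1* and in 4.73% of the rest. Without the 88 cells the 3 genes no longer passed the filter on low counts, and 0 of 1052 genes were called (77 at an unadjusted p under 0.05, edgeR). The cells rich in sebaceous gland genes were 3.42% to 16.3% of the Basal III cells in mice of 2CIA and 3.85% to 27.6% in mice of CIA.

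**Figure D5:**
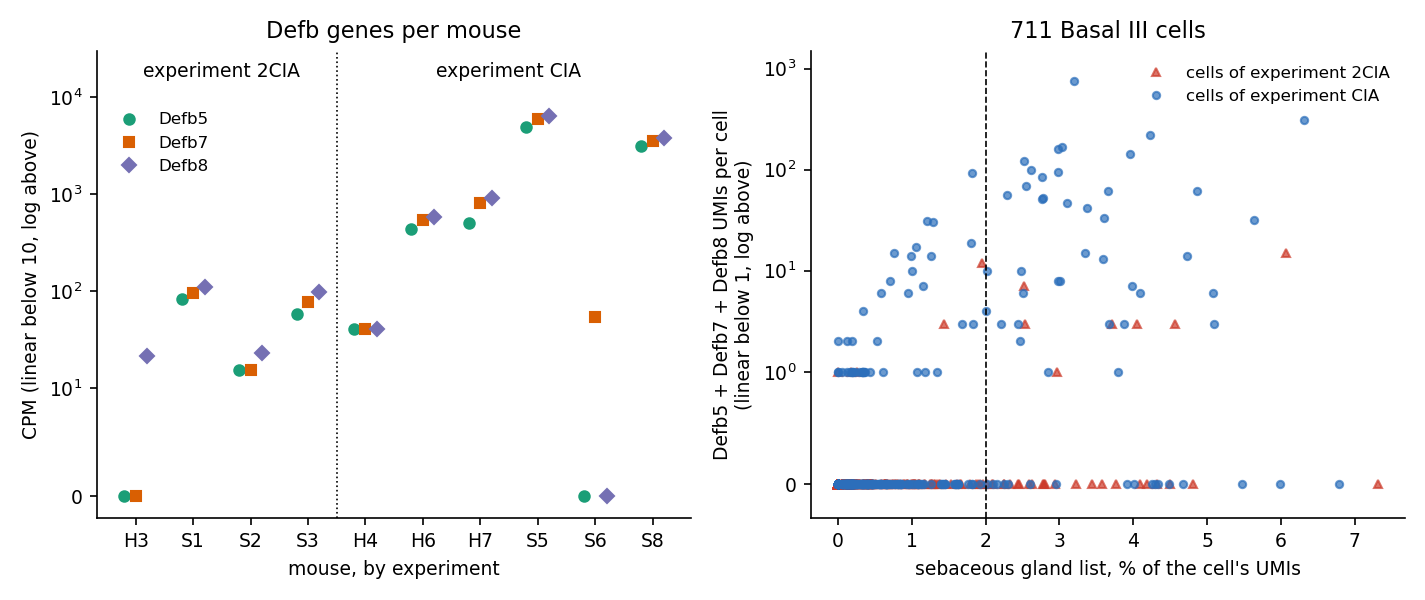
Left, CPM of *Defb5*, *Defb7*, and *Defb8* in each mouse, ordered by experiment, on an axis that is linear below 10 and logarithmic above. Right, UMIs of the 3 genes in each of the 711 cells against the percentage of its UMIs on the sebaceous gland list, with the 2% limit dashed. S5 and S8 were at 3136 CPM or more for each gene, and nearly all cells with more than 10 defensin UMIs were cells of the experiment CIA.

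The upstream sequences of the defensin genes are shown because the 3 genes were called together and are similar in sequence. Below are the 250 bases before each RefSeq start, written in the direction of transcription (chr8:19247342-19247591, chr8:19494847-19495096, and chr8:19447607-19447856, the last on the minus strand, GRCm38.p6), with the run TATATAA in capitals.
Defb5: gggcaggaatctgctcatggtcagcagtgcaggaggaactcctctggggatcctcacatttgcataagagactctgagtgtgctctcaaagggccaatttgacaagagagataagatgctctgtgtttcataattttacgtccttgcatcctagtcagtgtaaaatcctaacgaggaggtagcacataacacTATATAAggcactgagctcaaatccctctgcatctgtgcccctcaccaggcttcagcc
Defb7: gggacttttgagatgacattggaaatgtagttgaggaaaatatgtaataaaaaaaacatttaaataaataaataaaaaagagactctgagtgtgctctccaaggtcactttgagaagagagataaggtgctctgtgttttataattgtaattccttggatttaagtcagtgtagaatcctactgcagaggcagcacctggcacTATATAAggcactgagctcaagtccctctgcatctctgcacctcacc
Defb8: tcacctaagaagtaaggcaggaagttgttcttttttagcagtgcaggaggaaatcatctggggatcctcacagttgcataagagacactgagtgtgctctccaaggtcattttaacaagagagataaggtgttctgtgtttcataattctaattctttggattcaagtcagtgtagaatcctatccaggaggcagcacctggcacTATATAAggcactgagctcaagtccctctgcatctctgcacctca

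All 3 sequences hold the 24-base run cactatataaggcactgagctcaa, which begins at positions -61, -50, and -48 from the start in *Defb5*, *Defb7*, and *Defb8*. The run TATATAA was chosen after the sequences had been viewed, was searched on both strands, and was present in 3.04% of 32851 promoters of the same length. Identity over the aligned upstream bases was 78.8% for *Defb5* and *Defb7*, 85.2% for *Defb5* and *Defb8*, and 85.7% for *Defb7* and *Defb8*. The longest transcripts were 75.4%, 80.6%, and 89.2% identical for the same pairs, so short reads may be divided between the genes with error. *Defb6*, a neighbouring defensin gene of the hair follicle list, had a log2 fold change of -1.34 ± 0.51 without passing the test, and its level in cells rich in sebaceous gland genes (155 ± 269 CPM) was close to that in the rest (178 ± 152 CPM).

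Sebaceous and cholesterol genes had mostly negative values in the same contrast. Of the 10 sebaceous gland genes tested 9 were negative, against 49.4% of all genes tested, with a median of -0.70, and *Elovl6*, *Soat1*, and *Elovl3*, which elongate fatty acids or esterify cholesterol, had an unadjusted p under 0.05 with negative values (4.84% of all genes tested). A cholesterol synthesis list, chosen after these values had been seen, had 4 of 22 genes tested, all negative, with a median of -1.08. *Msmo1*, a sterol oxidase gene, was at 131, 180, 148, and 127 CPM in H3, S1, S2, and S3 and at 272 to 541 CPM in the mice of CIA. It was thus 1 of 9 genes (0.703%) that were lower in 2CIA without overlap (-1.23 ± 0.30, adjusted p = 0.223, edgeR quasi-likelihood, Benjamini-Hochberg). *Msmo1* passed the filter on low counts mainly through the mice of CIA, in which it was higher.

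Activated keratinocyte genes had mostly positive values, 8 of the 10 tested against 50.6% of all genes tested. *Ptgs2* (chr1:150100031-150108227, plus strand) had 12, 15, 65, and 21 UMIs in H3, S1, S2, and S3, and 2, 16, 5, 3, 1, and 4 UMIs in H4, H6, H7, S5, S6, and S8. In CPM it was 205 to 505 in 2CIA and 24.6 to 162 in CIA, so that *Ptgs2* was 1 of 11 genes (0.859%) that were higher in 2CIA without overlap. *Ptgs2* passed the filter on low counts through the mice of 2CIA, in which it was high, so its values belong to a gene that these mice selected. The log2 fold change of *Ptgs2* was 2.20 ± 0.47 and the adjusted p was 0.078 (edgeR quasi-likelihood, Benjamini-Hochberg). *BC100530* was at 2.95 ± 0.76 with an adjusted p of 0.286, and S2 held 355 of its UMIs. *Mt2* (0.81 ± 0.28) and *Mt1* (0.75 ± 0.31), the other main metallothionein gene, were both positive, as were *Krt5* (0.63 ± 0.27) and *Krt14* (0.47 ± 0.23). None of these passed the adjusted threshold.

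The disease effect in Basal III cells was also set against that in skin fibroblasts of the same mice, with 9 mice that had at least 10 cells of both types (S6 had 8 fibroblasts and was left out). The interaction passed the threshold for 0 of 987 genes (0%) by edgeR, with 38 (3.85%) at an unadjusted p under 0.05. This fit took both sums of a mouse as independent and so left out their pairing. With the mouse as a block, 2 genes (0.203%) passed. *Saa3*, an acute phase gene, had an interaction of -9.29 ± 0.74 (adjusted p = 9.7e-08, edgeR quasi-likelihood, Benjamini-Hochberg), but 1015 of its fibroblast UMIs came from S2, with 19 in S1 and at most 1 in any other mouse. In Basal III cells *Saa3* had 55 UMIs in H7, 67 in S2, and 19 in H3, and at most 3 in any other mouse. *Wfdc18*, a gene of the whey acidic protein family, had an interaction of 3.37 ± 0.66 (adjusted p = 0.0255, edgeR), with 251 fibroblast UMIs in H7 and 18 or fewer elsewhere. None of the Basal III markers that entered this fit (all but *BC100530*) passed it, and *Krt14* had an interaction of -0.06 without the block.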

How the data were processed

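Single-cell transcriptomes had been made with Seq-Well. According to the study's methods the authors aligned reads with STAR to GRCm38, counted UMIs with the Drop-seq tools, and kept cells with at least 10000 reads, 400 transcripts, and 200 genes and under 20% mitochondrial reads. The submitters' notes list mm9 and GRCh38 as well, and the count table holds gene symbols without coordinates, so gene positions were taken from GENCODE vM21 and upstream sequences and starts from RefSeq (both GRCm38). The authors deposited UMI counts of 34586 genes per cell without normalization, with a cell annotation made from denoised counts, reference profiles, and Leiden clusters. Cell types were taken from it, no doublet caller was run beyond the authors' own removal of cells with very high transcript counts, and 11749 cell columns of other samples were not used.

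For each mouse, counts were added up over its cells of a type. The sums were fitted in edgeR 4.0.16 (R 4.3.3, quasi-likelihood, TMM, filterByExpr) and p-values adjusted by Benjamini-Hochberg over all genes tested (threshold 0.05). The SE of a log2 fold change was its size divided by the root of F. Mice are the replicates (4 healthy, 6 CIA), and an exact two-sided permutation over them served for single values. Alternatives were DESeq2 1.42.0, other scalings, no filter, limma 3.58.1 on means over cells, other cell limits, a replicate block, and leaving out mice or groups of cells. In data simulated for CIA against healthy with 1160 genes tested, the fit called 98.7% of 152 genes whose log2 value had been shifted by 2, with 4.46% of calls false. For the fibroblast interaction it called 68.6% of 175 such genes among 850, with 6.25% of calls false. Both sums of a mouse were simulated as independent there, and the fit with the mouse as a block was not simulated. Shifted genes that the filter on low counts removed are not part of these shares. A shift of 2 is larger than most differences given above, and smaller shifts were not simulated. The members, gene lists, and tests were chosen with earlier results of these data known. Genes were named if they were markers of the annotation, passed a threshold, had the smallest p in a direction, or were among the most abundant genes overall or of a list. Others, such as *Msmo1*, *Soat1*, *Elovl3*, *Itga6*, *Trp63*, *Dsp*, *Flg*, *S100a3*, *Krt25*, *Defb6*, the immediate early genes, and the genes of cells rich in sebaceous gland genes, were chosen after their values had been seen. Some genes of lipid synthesis are not reported here.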

Additional observations from a re-analysis of the deposited data

Results flagged for a closer look

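Of 38 groups of mice tested for a single distant value, 4 were flagged, where about 1 in 20 is flagged by chance. *Krt14* in H4 was at 535 CPM, while the next healthy mouse was at 1047 CPM. *Krt15* in S6 was at 703 CPM, while the next CIA mouse was at 210 CPM. S2 was far above the other CIA mice for *Mt2* (2232 CPM, next 1131 CPM) and for *BC100530* (2760 CPM, next 913 CPM). H4 and S6 were the mice with the fewest Basal III cells, 23 and 20, and S2 had 117.

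The disease effect differed between Basal III cells and fibroblasts for *Saa3* (-9.29 on the log2 scale) and *Wfdc18* (3.37). The test was the interaction in edgeR with the mouse as a block. Neither gene passed without the block, in the fit that left out the pairing of both sums of a mouse. The fibroblast UMIs of *Saa3* came almost all from S2 and those of *Wfdc18* mostly from H7, and the part of these libraries in the result was not tested.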

How the results depend on the processing

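CIA against healthy called 0 genes under all alternatives except no filter on low counts (15 of 18338 genes, all higher in CIA mice and mostly with UMIs in a few mice). The experiment contrast called 14 genes with no filter, 0 without cells rich in sebaceous gland genes, and 0 to 6 when 1 mouse was left out (0 without S3, S5, or S8, and 6 without H3). It called 3 genes by DESeq2. The fibroblast interaction called 2 genes with no filter and 2 with the mouse as a replicate block. DESeq2 was not run for it, and alternatives without S6 do not exist because S6 was not in the fit. The block by mouse number, which H3 shares with S3 and H6 with S6, called 0 genes in CIA against healthy (35 at an unadjusted p under 0.05). The correlations of deviations were 0.215 and -0.130 for these numbers, which belong to different animals and do not pair the samples.

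The difference in UMIs per cell was -201 (p = 0.0571, exact permutation test) for means and -211 to -133 when 1 mouse was left out, with p above 0.05 for 6 of the mice. The share of cells with *Krt15* passed without thinning (-8.18 percentage points). Differences in share that changed sign were 2.49 for *Krt14* with another seed, 4.67 for *Krt17* within the experiment CIA, and -0.595 (no thinning) and -0.0901 (another seed) for *Krt79*. With 1 mouse left out they ranged from -2.88 to 1.88 for *Krt17*, from -0.950 to 2.12 for *Krt79*, and from -0.618 to 1.07 for *Mki67*. Of 95 named genes in the CIA comparison, 56 kept their sign under every alternative, the block by mouse number included. Of 169 opposite signs among 2205 pairs of gene and alternative, 146 arose without that block. The causes were not tested. With 20 to 132 cells per mouse, genes of a few UMIs could not be compared, and S6 and H4 had the fewest summed UMIs.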
